A study of Homo sapiens with 6 samples.

Results

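The genes described here are targets of the hypoxia-inducible factors (HIFs) that act outside glycolysis, measured in the human melanoma cell line A375. They were taken from a list of 39 gene symbols covering secreted, mitochondrial, stress, nuclear, membrane and secretory-pathway genes, and the rule takes them by symbol alone, although the list was written with earlier results of these data known. Of the 39 symbols, 38 were found among the 28395 genes of the deposited table, and the remaining symbol, C4orf47, is listed there as CFAP96 and is given separately. RNA sequencing was done on 6 libraries in 2 groups of 3, from cells labelled as wild type. The control group (OLO) received olive oil and the treated group (OZO) ozonated olive oil, each at 0.01% for 6 h. Both groups were kept in serum-containing medium in air with CO2, and neither was a low-oxygen culture. The labels do not say whether the libraries came from separate cultures, and the study describes its A375 transcriptome values as coming from independent experiments.

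HIFs are transcription factors with an oxygen-regulated alpha subunit, HIF1A or EPAS1, and a constant partner such as ARNT. With oxygen present, the EGLN prolyl hydroxylases mark the alpha subunit and the VHL ubiquitin ligase removes it. Without it, the dimer binds a short core motif in regulatory DNA and raises genes for glucose use, vessel growth, removal of mitochondria and other adaptations. Many of the targets outside glycolysis also answer to other stress pathways.

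The values below are the authors' mean of log2 CPM (counts per 1000000 counts of a library) over all 6 libraries, OLO and OZO together. A gene that differed between the groups therefore sits between its levels in them, and no value here is the level in either group. Single libraries were not analysed here, so a mean carries no standard deviation, no test was made, and the order of 2 genes with close means cannot be resolved. In bulk RNA, fewer cells that express a gene and less RNA per cell cannot be told apart. From the low values of the table, the geometric mean of the library sizes was 18409902 fragments, at which 1 read corresponds to 0.0543 CPM. A mean number of reads per library, on the same log scale, is given beside the level, and a mean of 10 reads corresponds to a log2 CPM of −0.81. Levels of different genes are compared mainly after division by the length of the canonical transcript, as log2 CPM per kilobase (kb). Comparisons given in log2 CPM, CPM or reads are not corrected for length. Among lineage markers, the melanocyte transcription factors SOX10 and MITF had levels of 5.64 and 4.76 log2 CPM, and 5 of the 8 melanocyte markers averaged 10 reads or more. The other 3, the pigment genes PMEL, DCT and TYR, had 5.75 reads, 4.74 reads and no read, and TYRP1 and MLANA had 11.0 and 36.6. AXL, a receptor kinase of dedifferentiated melanoma, had 8.06 log2 CPM. The other markers of that state, NGFR, EGFR and SOX9, had 5.24, 4.82 and 2.22 log2 CPM. Of 3 endothelial markers, CDH5 and VWF had under 1 read and PECAM1 had 19.5. Of 3 leucocyte markers, CD3E and PTPRC had at most 1.07 reads and CD14 had 14.7. Among keratinocyte markers, KRT5 had 1.56 reads, KRT14 had 77.5 and KRT10 had 469. The fibroblast markers COL1A2, DCN, PDGFRA and COL1A1 had 0.10, 5.12, 15.2 and 22.3 reads.

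The hypoxia targets outside glycolysis were nearly all present in these cells, at moderate levels. Of the 38 genes, 36 averaged 10 reads or more, 1 (RCOR2) had 8.83 reads and 1 (CXCR4) was below the floor of 3 reads. Their median level was 4.60 log2 CPM, beside 4.47 for the 13773 genes of the table that averaged 10 reads or more and −1.19 for all genes. Per kb, their median was 3.30 log2 CPM per kb, beside 2.89 for the genes with at least 10 reads, and 22 of the 38 lay above that 2.89. Against those genes, 9 members fell among the upper 25% and 7 among the lower 25%, so the list was spread over the range of expressed genes. The middle of the list was wide, with quartiles of 1.33 and 4.15 log2 CPM per kb. Abundance was concentrated in a few genes: the 5 highest held 48.9% of the summed CPM per kb of the list and the 10 highest held 70.7%. All members together made up 0.18% of the counted fragments, on the scale of these means.

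**Figure D1:**
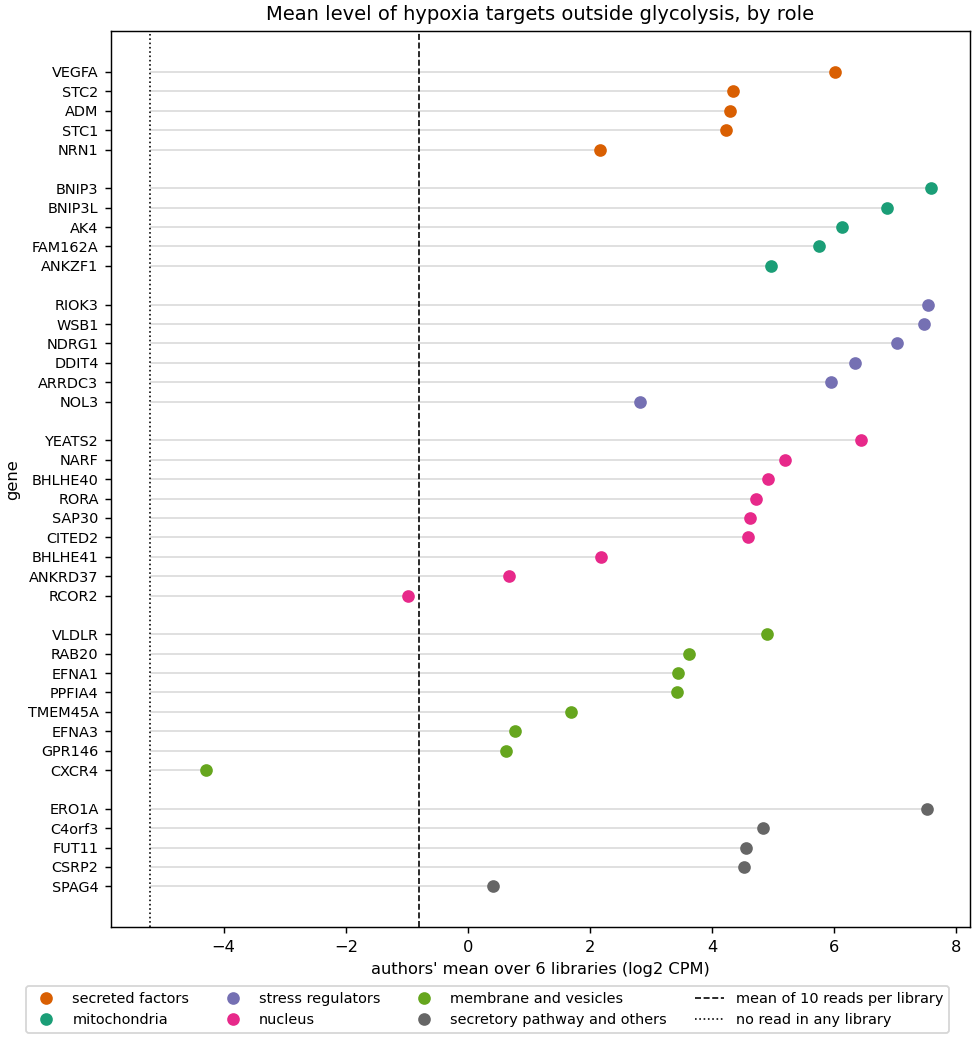
The horizontal axis is the authors' mean log2 CPM over 6 libraries and each point is 1 of the 38 genes, coloured by role; the dashed line marks a mean of 10 reads and the dotted line no read in any library. All mitochondrial genes lie at 4.96 or above, while the membrane and vesicle genes reach at most 4.89 and CXCR4 sits at −4.29, close to the dotted line. These values are not divided by transcript length. Per kb of canonical transcript, the mitochondrial genes lie at 3.35 or above and the membrane and vesicle genes reach at most 3.02. With all annotated exons summed, these groups overlap, since FAM162A at 2.21 and ANKZF1 at 2.35 lie below RAB20 at 3.02.

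Mitochondrial genes had high levels as a group, with all 5 above the median of the genes with at least 10 reads and a median of 4.13 log2 CPM per kb. BNIP3, a receptor on the outer mitochondrial membrane that recruits the autophagy machinery (chromosome 10, 131967684 to 131981923), was the highest of the 38 genes on both scales. It had 7.58 log2 CPM, or 3511 reads per library, and 6.95 log2 CPM per kb, which placed it at the 96.5th percentile of the genes with at least 10 reads. Its paralogue BNIP3L, also known as NIX, is a second mitophagy receptor (chromosome 8, 26383054 to 26413127). BNIP3L had 6.86 log2 CPM and 5.07 log2 CPM per kb, so BNIP3 was 3.67-fold higher per kb. That difference depends on the length used, since it was 1.88 log2 units with the canonical transcript and 0.75 with all annotated exons summed. In BNIP3, 12.8% of the 100-base windows of the transcript also occur in the pseudogene BNIP3P1, so part of its reads could be assigned to either. AK4, an adenylate kinase of the mitochondrial matrix, had 6.13 log2 CPM and 3.35 log2 CPM per kb, and 12.2% of its windows are shared with its pseudogenes and other transcripts. FAM162A, a mitochondrial protein linked to hypoxic cell death, had 5.74 log2 CPM and 4.13 log2 CPM per kb. Of its windows, 13.2% are shared with WDR5B, which overlaps it on the opposite strand. ANKZF1, which releases stalled chains from ribosomes, had 4.96 log2 CPM and 3.61 log2 CPM per kb. Per kb of canonical transcript, AK4 was the lowest of the 5. With all exons summed it was at 3.20 log2 CPM per kb, above ANKZF1 at 2.35 and FAM162A at 2.21.

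Stress regulators had the highest median of the role groups, 5.27 log2 CPM per kb, with 5 of 6 above the median of the genes with at least 10 reads. RIOK3, an atypical protein kinase (chromosome 18, 23453287 to 23483140), was second in the list at 5.70 log2 CPM per kb and had 3413 reads per library. DDIT4, also known as REDD1, which restrains mTORC1 signalling (chromosome 10, 72273924 to 72276036), followed at 5.53 log2 CPM per kb and 1485 reads. NDRG1, a widely used hypoxia marker (chromosome 8, 133237175 to 133297252), had 5.43 log2 CPM per kb and 2398 reads, and 22.4% of its windows are shared with a second annotated gene on the same strand. With all exons summed NDRG1 was at 3.44 log2 CPM per kb, and its place went from 4 to 9. WSB1, a substrate receptor of a ubiquitin ligase, had 5.12 log2 CPM per kb and 3268 reads. ARRDC3, an arrestin-domain adaptor, had 3.86 log2 CPM per kb. NOL3, an apoptosis repressor, was the exception at 2.39 log2 CPM per kb, with 129 reads.

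Secreted factors had a lower median, 2.28 log2 CPM per kb, and 2 of 5 lay above the median of the genes with at least 10 reads. VEGFA, the main growth factor for blood vessels (chromosome 6, 43770211 to 43786487), was the highest of them at 6.01 log2 CPM, 1185 reads and 4.16 log2 CPM per kb. With all exons summed it was at 2.16 log2 CPM per kb, below ADM at 3.07 and STC1 at 2.18, and its place among the 38 genes went from 10 to 23. ADM, the precursor of the vasodilator adrenomedullin, had 4.29 log2 CPM, 359 reads and 3.71 log2 CPM per kb. The stanniocalcins are a pair of paralogous secreted glycoproteins. STC1 (chromosome 8, 23841929 to 23854806) had 345 reads and 2.28 log2 CPM per kb, and STC2 (chromosome 5, 173314723 to 173328414) had 371 reads and 2.25 log2 CPM per kb. STC2 minus STC1 was −0.03 log2 units per kb, the smallest difference of the 4 paralogue pairs in the list. NRN1, or neuritin, a membrane-anchored protein of neurons, was the lowest secreted factor at 82.3 reads and 1.51 log2 CPM per kb.

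Nuclear and related genes ranged from 4.48 down to −2.52 log2 CPM per kb, and 5 of 9 lay above the median of the genes with at least 10 reads. SAP30, a subunit of a histone deacetylase complex, was the highest of them at 4.48 log2 CPM per kb and 451 reads. YEATS2, a reader of acylated histones, had 1596 reads but a long transcript and was at 3.73 log2 CPM per kb. CITED2, which competes with HIF1A for a shared coactivator, had 3.33 log2 CPM per kb, and NARF, which binds prelamin A, had 3.25. BHLHE40 and BHLHE41, also known as DEC1 and DEC2, are paralogous repressors that act in the circadian clock as well as under hypoxia. BHLHE40 (chromosome 3, 4979437 to 4985323) had 557 reads and 3.26 log2 CPM per kb, whereas BHLHE41 (chromosome 12, 26120030 to 26125037) had 82.8 reads and 0.27 log2 CPM per kb. BHLHE40 was therefore 7.94-fold higher per kb, the largest difference of the 4 pairs. RORA, a nuclear receptor of the clock, had 1.27 log2 CPM per kb from 481 reads over a transcript of 10827 bases. ANKRD37, an ankyrin-repeat protein, had 28.9 reads and 1.03 log2 CPM per kb. RCOR2, a corepressor (chromosome 11, 63911230 to 63927762), was at −2.52 log2 CPM per kb.

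Membrane and vesicle genes were the lowest role group, with a median of 0.88 log2 CPM per kb and 1 of 8 above the median of the genes with at least 10 reads. That gene was RAB20, a small GTPase of vesicle traffic, at 3.02 log2 CPM per kb and 225 reads. Ephrin-A ligands signal to Eph receptors on neighbouring cells. EFNA1 (chromosome 1, 155127876 to 155134899) had 199 reads and 2.80 log2 CPM per kb, and EFNA3 (chromosome 1, 155078837 to 155087538) had 30.9 reads and −0.09 log2 CPM per kb. EFNA1 was 7.43-fold higher per kb although the 2 genes lie on the same strand with 40337 bases between them. For EFNA3, 43.9% of the annotated exon bases also belong to the read-through gene EFNA4-EFNA3, so its count is uncertain. VLDLR, a lipoprotein receptor, had 545 reads spread over a transcript of 9213 bases, which gave 1.69 log2 CPM per kb. TMEM45A had 1.04 and PPFIA4, a liprin scaffold, had 0.72 log2 CPM per kb. GPR146, an orphan receptor (chromosome 7, 1044546 to 1059261), had 28.0 reads and −0.28 log2 CPM per kb, and 49.8% of its exon bases are overlapped by genes on the opposite strand. Of its windows, 78.4% also occur, as the reverse complement, in a gene on that opposite strand. On the opposite strand, C7orf50 had 323 reads, and the use of strand in counting is not stated.

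CXCR4, the receptor of the chemokine CXCL12 (chromosome 2, 136114349 to 136118149), was the lowest of all members. It had a mean of 0.44 reads per library, under the floor of 3 reads. Reads were present, between 4 and 22 over the 6 libraries, but a mean this low gives no exact level. At the floor of 3 reads per library its level would be −3.13 log2 CPM per kb, and BNIP3 would be 1003-fold higher in CPM.

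Secretory-pathway and other genes had a median of 3.51 log2 CPM per kb, with 4 of 5 above the median of the genes with at least 10 reads. ERO1A, the oxidase that forms disulfide bonds in the endoplasmic reticulum (chromosome 14, 52639915 to 52695558), had 3379 reads and 5.16 log2 CPM per kb, the fifth highest of the list. CSRP2, a LIM-domain protein, had 4.65 log2 CPM per kb with its canonical transcript of 908 bases and 1.97 with all its exons summed to 5842 bases. Its place in the order went from 8 to 25 between these lengths, the largest move of any member. FUT11, a fucosyltransferase, had 3.51 and C4orf3, a small membrane protein, had 3.41 log2 CPM per kb. For FUT11, 24.7% of the windows are shared with a gene annotated on the opposite strand. SPAG4, a protein of the nuclear envelope (chromosome 20, 35615829 to 35621094), had 0.41 log2 CPM and −0.23 log2 CPM per kb. CFAP96, which carries the Ensembl identifier that GENCODE assigns to C4orf47, had 14.2 reads and −0.74 log2 CPM per kb. It lies 7710 bases downstream of ANKRD37 on chromosome 4, on the same strand.

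In the order per kb, 35 of the 38 genes had a neighbour within 2-fold, so most adjacent places are close. The gaps were wider only at the ends. BNIP3 stood 1.25 log2 units above RIOK3, and RCOR2 stood 2.24 log2 units below GPR146. CXCR4 was at least 2.85 log2 units below GPR146, taking CXCR4 at the floor of 3 reads.

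The list differed in level from a list of glycolysis genes, drawn up from general knowledge. HIFs also raise genes for glucose use, so this is not a comparison with genes outside HIF control. The 20 glycolysis genes compared, from glucose transporters to lactate dehydrogenase, had a median of 5.58 log2 CPM per kb, which was 4.86-fold above the 3.30 of the 38 genes. Of those 20, 19 lay above the median of the genes with at least 10 reads, and 8 lay above BNIP3, the highest of the 38 genes. GAPDH reached 11.8 log2 CPM per kb, whereas the kinase PDK1 was the lowest of the 20 at 1.75. PDK1 had 873 reads over a transcript of 14072 bases, and PFKL, PFKFB4 and ALDOC had fewer reads. The 4.86-fold difference is given with canonical transcripts only. This is a description of 2 lists, and genes are not replicates. In the HIF system itself, HIF1A was at 6.14 log2 CPM per kb and EPAS1 at 0.36. ARNT was at 3.65, VHL at 4.34 and EGLN1 at 5.52 log2 CPM per kb. EGLN3, a hydroxylase gene that is itself a hypoxia target, had 34.6 reads and −0.51 log2 CPM per kb.

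**Figure D2:**
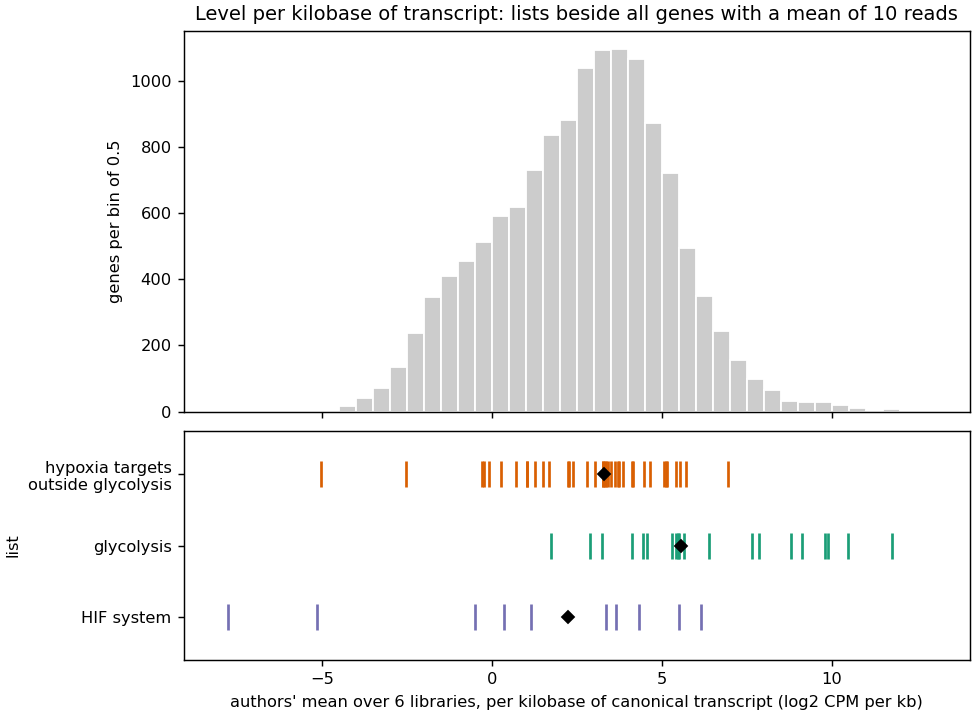
The upper panel counts the genes averaging 10 reads or more in bins of 0.5 log2 CPM per kb, and the lower panel marks each gene of 3 lists on the same axis, with a diamond at each median. The 38 targets outside glycolysis are centred at 3.30 within the bulk of expressed genes, and the glycolysis genes are centred at 5.58 and reach 11.8.

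The means of the 6 least read genes also hold limits on how single libraries differed. The mean of log2 counts with 0.5 added, times 6, gives a product to which each library contributes 1 odd whole number, and the factors of that product limit the counts. For CXCR4 the product was 45, so at least 3 of the 6 libraries had no read and all 6 together had between 4 and 22. For RCOR2 at least 1 library had 14 or more reads, and the highest and the lowest library were at least 10 reads apart. For GPR146 the highest and lowest library were at least 14 reads apart around a mean of 28.0. The limit was wider for the other low genes. ANKRD37 had at least 68 reads in 1 library and at least 59 reads between the highest and the lowest, around a mean of 28.9. SPAG4 had a spread of at least 57 reads, and EFNA3 one of at least 44 around 30.9. Which libraries were high cannot be read from a mean, and these counts are not scaled for library size. The part of treatment, depth or chance in these spreads was not tested. For ANKRD37, 40.3% of the exon bases are overlapped on the opposite strand, by UFSP2 at 551 reads.

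Promoter windows were examined for a sequence feature that the rule for members did not use. The genes are on the list as HIF targets, so their share of this motif is not independent of the list. Windows reach from 250 bases before to 50 bases after an annotated start (RefSeq, GRCh38.p14), and 30 of the 38 genes had at least 1 of them. No window was used for ANKZF1, BNIP3L, NDRG1, RAB20, RCOR2, SPAG4, STC1 and VEGFA. The form ACGTG of the core motif of HIF binding was searched on both strands and found in 17 of the 30 genes (56.7%). The share was 27.7% of the 18304 genes of the table with a window and 32.4% of those with at least 10 reads. Genes with several starts have more chances of a match. Among genes with a single window the share was 50% (11 of 22), against 23.3% of all genes and 27.5% of those with at least 10 reads. The longer form ACGTGC was found in 12 of the 30 genes (40.0%), against 9.53% of all genes and 11.3% of those with at least 10 reads. The palindrome CACGTG contains ACGTG and is also the E-box bound by other factors, such as BHLHE40 and BHLHE41 themselves. It was found in 11 of the 30 genes (36.7%), against 10.3% of all genes and 12.5% of those with at least 10 reads. The other form of the core, GCGTG, was found in 18 of the 30 genes (60.0%). This share was close to the 58.0% of genes with at least 10 reads, beside 48.2% of all genes. A match of letters is not a binding site, and windows without ACGTG include those of ADM, STC2 and VLDLR.

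The 27 matches fell at 26 places in the genome, because a pair of NARF windows overlap, and 12 of the 27 were inside CACGTG. Of the 27, 23 began before the start and 6 of these within the last 100 bases. The 17 genes with a match had a median level of 3.35 log2 CPM per kb and ranged from −0.28 to 6.95. The 13 genes without one had a median of 2.25 and ranged from −5.03, the value of CXCR4 under the floor, to 4.48. These ranges overlapped between −0.28 and 4.48. The 8 genes without a window had a median of 3.32, close to that of the genes with a match, and ranged from −2.52 to 5.43. Whether a match goes with the level was not tested. Of the 5 highest genes, BNIP3, RIOK3, DDIT4 and ERO1A had a match and NDRG1 had no window.

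**Figure D3:**
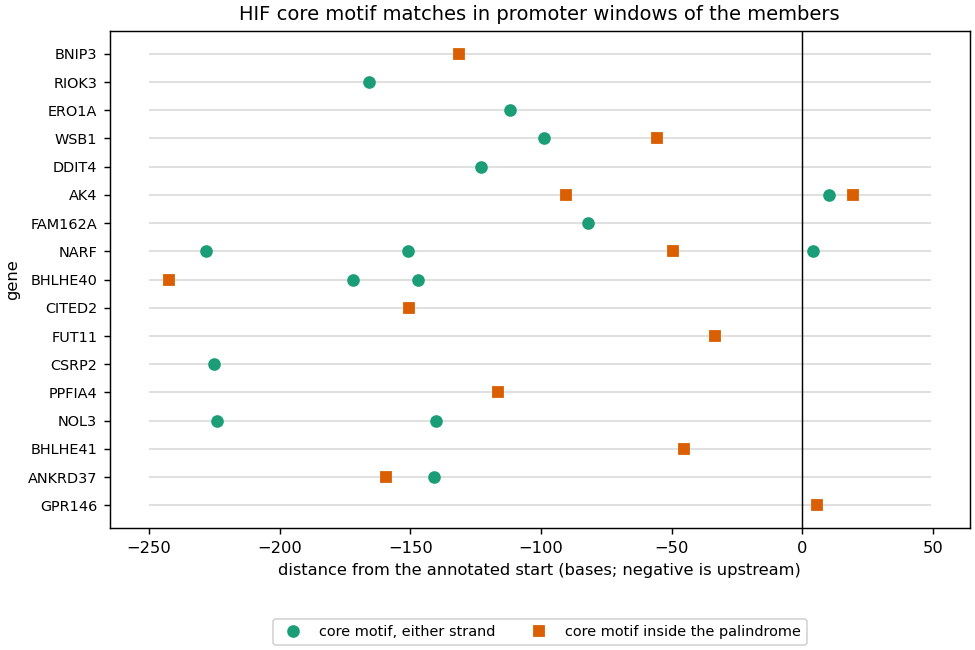
Each row is 1 of the 17 genes with a match, ordered from the highest to the lowest log2 CPM, and the horizontal axis is the distance of the match from the annotated start in bases. Circles are ACGTG on either strand and squares are matches inside CACGTG; for genes with several starts all windows are drawn on 1 row, and most matches lie upstream of the start.

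The sequences of 5 upstream windows are given, for the gene with the highest level and for the 4 genes with 2 or more matches upstream in 1 window. Each is the 250 bases before the start, 5′ to 3′ on the strand of the gene, with matches in capitals (ACGTG, its reverse complement CACGT, or the palindrome CACGTG). BNIP3 lies at chr10:131981924-131982173 on the minus strand, WSB1 at chr17:27293864-27294113, BHLHE40 at chr3:4979187-4979436, NOL3 at chr16:67170288-67170537 and ANKRD37 at chr4:185396591-185396840, all on the plus strand.
BNIP3: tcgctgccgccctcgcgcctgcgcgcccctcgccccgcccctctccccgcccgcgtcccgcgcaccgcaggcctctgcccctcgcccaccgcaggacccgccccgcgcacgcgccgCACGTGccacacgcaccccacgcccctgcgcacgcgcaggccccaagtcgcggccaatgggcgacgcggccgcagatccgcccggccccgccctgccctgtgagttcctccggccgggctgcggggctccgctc
WSB1: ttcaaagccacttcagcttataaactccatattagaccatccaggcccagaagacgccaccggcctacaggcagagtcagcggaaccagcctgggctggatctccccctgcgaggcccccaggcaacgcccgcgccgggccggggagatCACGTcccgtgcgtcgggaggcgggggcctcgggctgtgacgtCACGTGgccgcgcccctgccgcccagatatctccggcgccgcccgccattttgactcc
BHLHE40: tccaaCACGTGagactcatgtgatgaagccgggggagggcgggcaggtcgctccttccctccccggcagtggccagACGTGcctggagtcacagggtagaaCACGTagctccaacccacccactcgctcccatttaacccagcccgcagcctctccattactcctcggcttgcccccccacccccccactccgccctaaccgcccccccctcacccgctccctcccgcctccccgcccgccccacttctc
NOL3: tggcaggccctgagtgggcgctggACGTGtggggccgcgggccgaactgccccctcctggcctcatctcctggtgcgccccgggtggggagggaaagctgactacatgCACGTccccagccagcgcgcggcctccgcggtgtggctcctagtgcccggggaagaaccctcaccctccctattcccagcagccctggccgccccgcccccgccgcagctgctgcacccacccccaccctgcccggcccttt
ANKRD37: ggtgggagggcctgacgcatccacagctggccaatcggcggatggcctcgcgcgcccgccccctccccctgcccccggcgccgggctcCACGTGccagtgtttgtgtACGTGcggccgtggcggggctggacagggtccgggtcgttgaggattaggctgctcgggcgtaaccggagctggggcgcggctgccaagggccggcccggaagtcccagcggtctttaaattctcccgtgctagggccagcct
BNIP3 had its match inside a palindrome that began at position −134 from the start. WSB1 had 2 matches, the nearer one a palindrome that began at position −58. BHLHE40 had 3, the most of any member in 1 window, and was at 3.26 log2 CPM per kb. NOL3 had 2, neither of them a palindrome. ANKRD37 had 2, at positions −162 and −143, and was among the least read members. These 5 genes were picked by level or by number of matches, so they cannot show how the number of matches and the level relate.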

How the data were processed

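RNA sequencing of A375 cells treated with OLO or OZO gave 6 libraries, 3 per group as labelled. Per the labels and the study's methods, the authors aligned reads to hg38 with HISAT2 2.1.0, counted them per gene with featureCounts 2.1.1 and used limma-voom 3.58.1. The study names a directional library kit. The sources used here do not state normalization factors, a low-count filter or whether counting used strand. The deposited log2 values used here are the mean log2 CPM over all libraries. The 5 other numeric columns hold the authors' own comparison of the groups (fold change, moderated t, its p-value, the adjusted p-value and log odds) and were not used, so OZO and OLO were not compared.

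Voom adds 0.5 to each count, so a gene's mean above the lowest mean gives the geometric mean of its counts. Of 16516 genes with a product under 100000000000, the range of every count limit given, 100% gave an odd whole number (tolerance 0.05). Among them, the 7012 genes without a read give 1 by construction and are no check. The recovery was checked on simulated libraries over the same range. Intervals are not given because single libraries were not analysed here, and the floor of 3 reads covers counting error only. Lengths and exon overlaps came from GENCODE 44, matched by Ensembl identifier for 25497 genes, and coordinates from RefSeq GRCh38.p14, the assembly hg38 denotes. Exact 100-base windows were compared with all GENCODE transcripts, on both strands. Python 3.11.15, pandas 2.3.3, numpy 2.4.6 and sympy 1.14.0 were used. The members, roles and lists were chosen with earlier results of these data known. All members may be named. The 5 highest and 5 lowest per kb, the 4 paralogue pairs and any member under the floor were given with more values. These are coordinates, the level per kb, and reads or log2 CPM.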

Additional observations from a re-analysis of the deposited data

How the results depend on the processing

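No paired analysis was possible because the values used are a mean over all libraries. For the same reason leaving out each replicate in turn was not run, and the part of 1 library in a value is limited only for the least read genes, by the count limits given above. The number of members above the median level, 37 against all genes, was 31 against genes with a read and 22 against genes with at least 10 reads, which follows from raising that median by removing first the unread genes and then those averaging under 10 reads. The median level of 4.60 log2 CPM was 4.66 over the 36 members with at least 10 reads. The other counts stayed within 1.5 times: 37 members with at least 1 read and 32 with at least 50, beside 36 with at least 10, and 22 above the median per kb with either gene length. Summed exon length lowered the level per kb by a median of 0.52 log2 units over genes with at least 10 reads, and by over 1.5 times in 19 members. With it, 4 of the 5 highest and 4 of the 5 lowest members per kb were shared with the main order. By role, 2 of 8 membrane and vesicle genes then lay above the median per kb, beside 1. Secretory-pathway and other genes had 3 of 5 above it, beside 4, and their median went from 3.51 to 2.26 log2 CPM per kb. The counts of the other roles did not change. The motif count of 17 was 12 with ACGTGC and 18 with GCGTG. Depth limits CXCR4, which is under the floor, and gene models limit EFNA3, GPR146 and ANKRD37.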

Other observations

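Outside the list, the oxygen sensor EGLN2 had a mean of only 0.59 reads per library, beside 3653 for EGLN1. On the same strand, 30.6% of the exon bases of EGLN2 are overlapped by other annotated genes, among them the read-through gene RAB4B-EGLN2, which the table lists at 0.15 reads. How the authors' counting treated reads in the overlap is not stated, and its part in this low value was not tested. HIF3A had no read in any library.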
